A study of Saccharomyces cerevisiae with 4 samples.

Results

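AGA1, AGA2, SAG1, FIG2 and MFA1 are the genes of sexual cell adhesion and of the a-factor pheromone that the array carried. Their features were taken by gene symbol, with no measured value used, though the list of genes was drawn up with earlier results of these data known. This gave 10 of the 896 features in the table, 2 for each of 5 genes, of 353 genes that the platform annotation names. The deposited table held 1 log2 ratio per feature for each of 4 2-colour arrays devoted to yeast cell wall genes. Each array compared an RNA sample with itself, labelled once with Cy3 and once with Cy5, so that a feature read without error has the same ratio as the other features. The RNA came from untreated cells of BY4741, a haploid Saccharomyces cerevisiae laboratory strain of mating type a whose genome lacks genes for histidine, leucine, methionine and uracil synthesis. The cells grew in rich medium (YEPD) at 24 °C and were collected 6 h after dilution to an optical density of 0.2. All 4 arrays form 1 group, numbered 1 to 4 as in the labels, and nothing in the labels says that they came from separate cultures. P-values therefore cover no more than the spread between these samples, and that spread may be technical.

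Haploid yeast cells mate with cells of the opposite type after each has sensed the other's pheromone. Cells of type a secrete a-factor, a short lipid-modified peptide encoded by MFA1 and its paralog MFA2, and display a-agglutinin, in which Aga1 is the wall-anchored subunit and Aga2 the small subunit, bound to it by disulphide bridges, that carries the binding site. Cells of type alpha display alpha-agglutinin, the product of SAG1, which Aga2 binds. AGA2 and MFA1 belong to the a-specific genes, SAG1 to the alpha-specific genes, and AGA1 and FIG2, which encodes a wall adhesin of mating cells, are induced by pheromone through the transcription factor Ste12. SAG1 is thus a gene that a cells are not known to express, and FIG2 one that is low until pheromone is sensed.

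A ratio of a sample against itself does not show how strongly a gene is expressed. The mating type of the cells could accordingly not be checked from these values. Of the marker genes considered, 2 of 6 for type a (AGA2 and MFA1), 1 of 4 for type alpha (SAG1) and 3 of 6 for the pheromone response (AGA1, FIG2 and FUS1) had features on the array. These lists are not complete: the array also carried other mating genes, such as FIG1 and AFB1.

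The array medians of the deposited log2 ratios were -0.058, -0.25, -0.19 and -0.24 on arrays 1 to 4, and arrays held 809 to 840 values. Below, each value is given after its array's median was subtracted, unless it is called deposited. Above and below mean relative to that median, with the sign that the deposited table uses. Which dye formed its numerator is not stated in the sources used here. Between pairs of arrays the values correlated across genes, which are not independent replicates, with Pearson r of 0.200 to 0.462. All pairs were thus positive, and arrays were taken to run the same way.

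The question of the comparison was whether these genes gave the same ratio as the bulk of the features, and how tightly. AGA2, SAG1 and FIG2 departed from the median on every array by more than the spread between arrays, AGA2 and FIG2 above it and SAG1 below it. MFA1 lay near the median. AGA1 had no stable position, running from far above to far below it. In the limma test of the mean against 0, 3 of the 5 genes passed an adjusted p of 0.05, beside 24.9% of the 345 genes tested. Over all genes 10.7% were called above the median and 14.2% below. The median of the 5 gene means was 0.07 and that over all tested genes -0.043. The list is too short to be set against these shares.

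**Figure D1:**
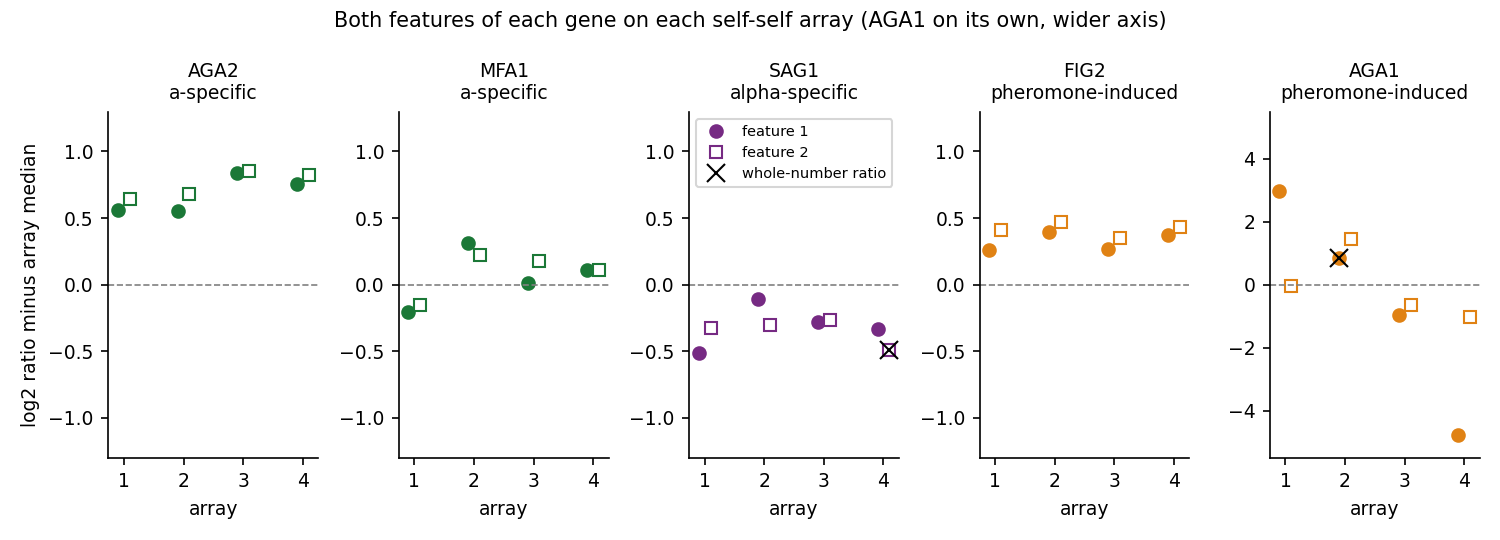
Log2 ratio minus the array median (vertical axis) of both features of each gene on arrays 1 to 4 (horizontal axis). Filled circles are the first feature and open squares the second, a cross marks a deposited value equal to a ratio of small whole numbers, and AGA1 has a wider axis than the other 4 genes. AGA2 and FIG2 lie above 0 and SAG1 below 0 on all 4 arrays, while the first AGA1 feature runs from 2.96 to -4.78.

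AGA2, the binding subunit of a-agglutinin and a gene that a cells express, had gene means of 0.60, 0.62, 0.85 and 0.79 on arrays 1 to 4. All 4 lay on the same side of the median, the lowest at 0.60. The first feature read 0.56, 0.55, 0.84 and 0.76, and the second 0.65, 0.68, 0.85 and 0.82. The mean was 0.71 ± 0.123 (SD, n = 4), a 1.64-fold departure, with a limma 95% interval of 0.51 to 0.92 and a limma adjusted p of 0.0248. Its p ranked 7 from the smallest among the 345 genes, and its absolute mean ranked 54 from the largest. As deposited, before centring, the mean was 0.53 ± 0.120 (SD, n = 4) and AGA2 still passed, at a limma adjusted p of 0.0166.

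MFA1, which encodes a precursor of a-factor, is a-specific like AGA2 but read differently on these arrays. Its gene means were -0.18, 0.26, 0.096 and 0.11 on arrays 1 to 4. The value of array 1 lay below the median and the other 3 above it. The first feature read -0.20, 0.31, 0.016 and 0.11, and the second -0.15, 0.22, 0.18 and 0.11. The mean of 0.07 ± 0.184 (SD, n = 4) had a limma 95% interval of -0.18 to 0.33 and an adjusted p of 0.613. It was 0.16 ± 0.0928 (SD, n = 3) without array 1 and 0.010 ± 0.163 (SD, n = 3) without array 2, not passing limma in either. Its sign depended on centring: as deposited the mean was -0.11, with a limma adjusted p of 0.323. Whether the MFA1 features also bind transcripts of the paralog MFA2, which had no feature of its own under the names used, was not tested.

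SAG1, the alpha-agglutinin gene, lay below the median on every array, with gene means of -0.42, -0.20, -0.27 and -0.41. Arrays 1 and 4 were the lowest. The first feature read -0.51, -0.11, -0.28 and -0.33, and the second -0.33, -0.30, -0.26 and -0.49. The mean was -0.33 ± 0.106 (SD, n = 4), a 1.25-fold departure, with a limma 95% interval of -0.52 to -0.13. Its adjusted p of 0.0467 in limma was close to the threshold, and was 0.05002, just past it, with a robust prior, where 18% of all genes were called. As deposited the mean was -0.51 ± 0.0962 (SD, n = 4) and SAG1 passed, at a limma adjusted p of 0.0164. In that setting 32.5% of all genes were called, 26.4% below 0. Taken apart, the second feature passed at a limma adjusted p of 0.0427 and the first did not, at 0.0754. A gene of the other mating type thus gave 8 values of 8 on these arrays, all on 1 side of the median, with an SD between arrays that ranked only 294 of 345 from the largest. By gene means, not single features, lying on 1 side is not rare here. It held for 51.3% of all genes tested, on every array with a value. Only 5.46% of the values of features with 1 gene were missing, which is a share of values and not of genes.

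FIG2, the adhesin gene induced by pheromone, was the least variable of the 5. Its gene means were 0.33, 0.43, 0.31 and 0.40 on arrays 1 to 4, all above the median and within a narrow range. The first feature read 0.26, 0.40, 0.27 and 0.37, and the second 0.41, 0.47, 0.35 and 0.44. The mean was 0.37 ± 0.0570 (SD, n = 4), a 1.29-fold departure, with a limma 95% interval of 0.20 to 0.54 and an adjusted p of 0.0347. As deposited the mean was 0.19 ± 0.0663 (SD, n = 4) and FIG2 did not pass, at a limma adjusted p of 0.101, where 32.5% of all genes were called, 6.09% above 0 and 26.4% below.

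AGA1, the anchor subunit of a-agglutinin, is pheromone-induced like FIG2 and stood at the other end of the spread. Its gene means were 1.46, 1.14, -0.80 and -2.90 on arrays 1 to 4. Arrays 1 and 2 lay above the median, and arrays 3 and 4 below it. The first feature read 2.96, 0.83, -0.96 and -4.78, and the second -0.050, 1.44, -0.63 and -1.03. On arrays 2, 3 and 4 both features had the same sign, and on array 1 the second feature was near the median while the first was far above it. The mean was -0.28 ± 2.01 (SD, n = 4), with a limma 95% interval of -2.52 to 1.97 and an adjusted p of 0.844. Without array 4 it turned to 0.60, with a limma adjusted p of 0.493. The deposited value of the first feature on array 4, -5.02, was the third largest in size among the 3297 values of the table.

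The calls of AGA2, SAG1 and FIG2 needed all 4 arrays. With 1 array left out the means stayed between 0.67 and 0.75 for AGA2, between -0.37 and -0.30 for SAG1 and between 0.35 and 0.39 for FIG2. The limma adjusted p ran from 0.0653 to 0.0858 for AGA2, from 0.0865 to 0.133 for SAG1 and from 0.0857 to 0.0965 for FIG2, so that none of the 3 passed without array 1, 2, 3 or 4. Over all genes 0, 0, 1 and 0 then passed, or 0%, 0%, 0.303% and 0%, and 115, 119, 114 and 118 had an unadjusted p under 0.05.

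The difference between 2 genes on the same array does not depend on how that array was centred, and compares ratios and not levels. AGA2 minus SAG1 was 1.02, 0.82, 1.12 and 1.20 on arrays 1 to 4, a mean of 1.04 ± 0.165 (SD, n = 4). AGA2 thus read above SAG1 on all 4 arrays, which does not bear on mating type, since both channels held the same RNA. MFA1 minus SAG1 was 0.24, 0.47, 0.37 and 0.53, a mean of 0.40 ± 0.124 (SD, n = 4), again positive on all 4 arrays. But AGA2 minus MFA1, both a-specific, was 0.78, 0.35, 0.75 and 0.68, a mean of 0.64 ± 0.198 (SD, n = 4). The separation inside the a-specific pair was therefore larger in mean than that of MFA1 from SAG1, a comparison of means that was not tested.

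FIG2 lay between AGA2 and MFA1 on every array. AGA2 minus FIG2 was 0.27, 0.19, 0.54 and 0.39, with a mean of 0.35 ± 0.153 (SD, n = 4). MFA1 minus FIG2 was -0.51, -0.17, -0.21 and -0.29, with a mean of -0.30 ± 0.153 (SD, n = 4). SAG1 minus FIG2 was -0.75, -0.64, -0.58 and -0.82, with a mean of -0.70 ± 0.107 (SD, n = 4). The order from highest to lowest was thus AGA2, FIG2, MFA1 and SAG1 on each of the 4 arrays. AGA1 kept no place in that order: its differences from the other 4 genes each had both signs, 2 arrays of either. Over the 10 pairs, the 6 without AGA1 had an exact two-sided sign-flip permutation p of 0.125 each, which is the smallest that 4 arrays allow, and 0.208 after Benjamini-Hochberg adjustment over the 10. The exact p of the 4 pairs with AGA1 ran from 0.500 to 1. No pair could have reached 0.05 in this design.

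**Figure D2:**
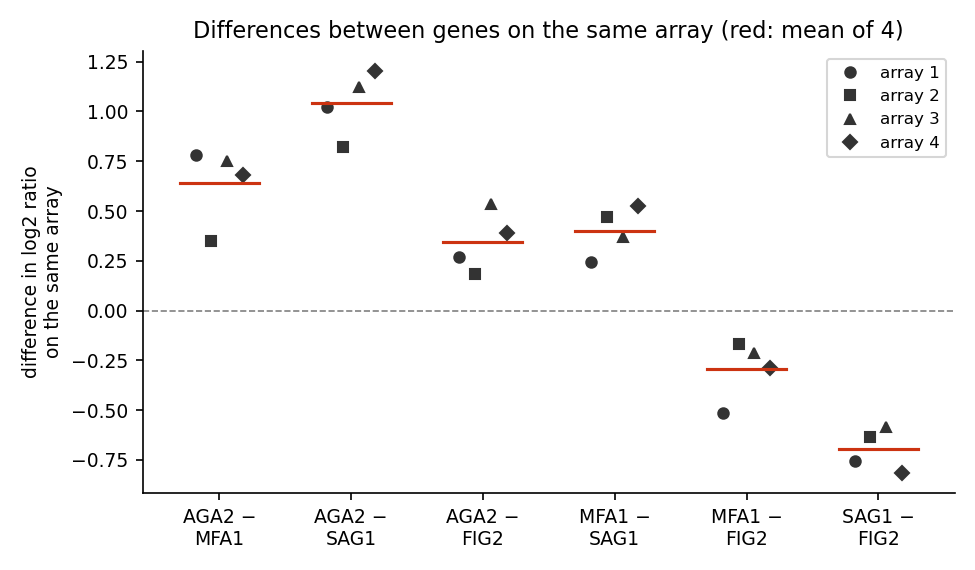
Difference in log2 ratio between 2 genes on the same array (vertical axis) for the 6 pairs without AGA1 (horizontal axis), with 1 symbol per array and a red line at the mean of 4 arrays. Each pair lies on 1 side of 0 on all 4 arrays, from AGA2 minus SAG1 at a mean of 1.04 to SAG1 minus FIG2 at -0.70.

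Missing values and ratios of small whole numbers may bear on how much signal a feature gave, but this was not tested, as intensities were not used here. None of the 40 values of the 5 genes was missing, beside 5.46% of the values of features with 1 gene and 8.01% of all values. A count of 0 among 40 allows a share of up to 7.5%, for counting error only, and the 4 values of a feature are not independent. Only 2 of the 40, or 5%, matched, within 0.00005, the log2 of 1 whole number over another with neither above 10, beside 7.2% of the values of features with 1 gene and 11.3% of all values. These were the first AGA1 feature on array 2, whose deposited value equals 3 over 2, and the second SAG1 feature on array 4, which equals 3 over 5. The a-specific genes AGA2 and MFA1 had 0 of 16 such values, the alpha-specific SAG1 had 1 of 8, and the pheromone-induced genes 1 of 16, that of AGA1. FIG2 had 0 of 8. With whole numbers up to 20 the first AGA1 feature on array 1 was added, at 15 over 2, which made 3 of 40, or 7.5%, beside 12.1% for features with 1 gene. These counts are too few to show whether the class of a gene sorts them, as each class with such a value held 1. AGA1 and FIG2, of 1 class, held 1 and 0 of 8, and 0 of 8 allows a share of up to 37.5%, for counting error only. No test was made, since features and arrays are not replicates of a class.

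Duplicate agreement separated AGA1 from the other 4 genes. On arrays 1 to 4 the second AGA1 feature minus the first was -3.01, 0.60, 0.33 and 3.75. The disagreement was thus widest on arrays 1 and 4 and had opposite signs there. The mean absolute difference of 1.92 was the third largest among 319 genes with 2 features and both values on at least 3 arrays. The median over those genes was 0.110.

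For SAG1 the same difference was 0.19, -0.20, 0.021 and -0.16, a mean absolute difference of 0.142 that ranked 119 of 319 from the largest. For MFA1 it was 0.053, -0.090, 0.16 and -0.00040, or 0.0758 in mean size, below the median over genes. For FIG2 it was 0.14, 0.072, 0.084 and 0.064, and for AGA2 0.084, 0.13, 0.014 and 0.067. In both FIG2 and AGA2 the second feature was thus the higher on all 4 arrays, with means of 0.091 ± 0.0369 and 0.075 ± 0.0492 (SD, n = 4). Neither passed the limma test of the duplicate difference, at an adjusted p of 0.728 each. That test called 0% of the 319 genes, with 15 at an unadjusted p under 0.05, FIG2 among them at 0.0320.

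Spread between arrays gave the same division. The SD of 2.01 for AGA1 was the seventh largest of 345 genes, and the median over genes was 0.236. MFA1 ranked 211 from the largest, AGA2 280, SAG1 294 and FIG2 326. With features taken apart, the SDs were 3.28 and 1.08 for AGA1 (n = 4), and 0.0489 to 0.213 for the other 8 features (n = 4). Of the 10 features, 5 passed limma when features were tested apart, both of AGA2, both of FIG2 and the second of SAG1, beside 22.7% of the 691 features tested. Setting the ratios of whole numbers up to 10 to missing took out 1 AGA1 value, 0.83 on array 2, and gave a mean of -0.20 ± 2.09 (SD, n = 4). The values furthest from the median, 2.96 and -4.78, stayed in, and the part of whole-number ratios in the spread of AGA1 was not tested.

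**Figure D3:**
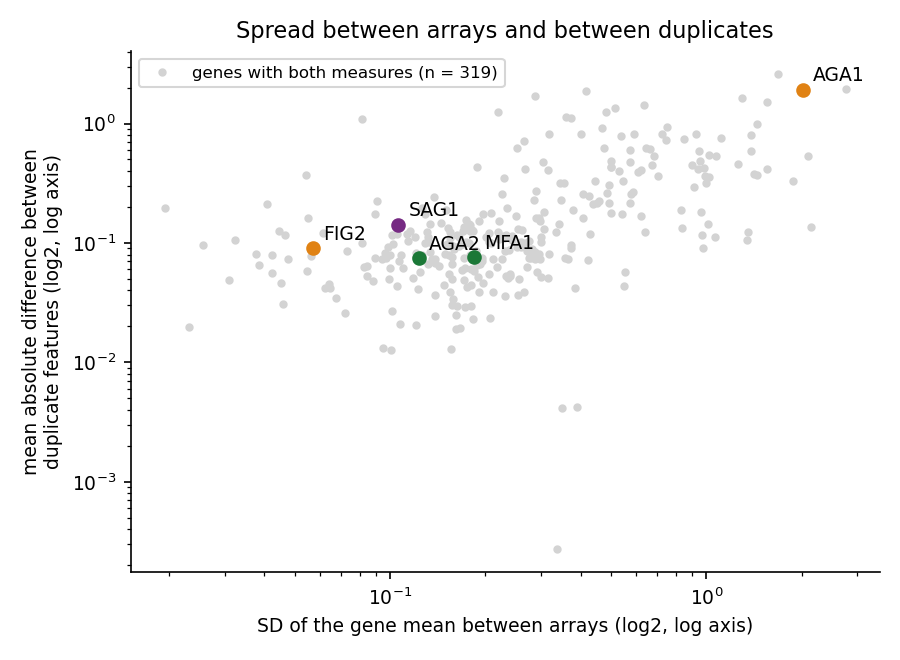
SD of the gene mean between arrays (horizontal axis, log2 units, log axis) against the mean absolute difference between duplicate features (vertical axis, log2 units, log axis) for 319 genes in grey, with the 5 genes in colour by class (green a-specific, purple alpha-specific, orange pheromone-induced). AGA1 sits at 2.01 and 1.92, in the upper right corner, and the other 4 genes lie at SDs of 0.0570 to 0.184.

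The array also carried 18 of 55 listed genes of pheromone signalling, its targets and mating type control, and all 18 were tested. Only MCM1, the cofactor with which both a-specific and alpha-specific genes are regulated, passed, below the median. It read -0.52, -0.30, -0.20 and -0.41 on arrays 1 to 4, a mean of -0.36 ± 0.138 (SD, n = 4) with a limma adjusted p of 0.0474. The other 17 did not pass, and 0 were called above the median. That is 1 of 18 called, beside 24.9% over all genes. The median of the 18 means was -0.018, and they ran from -0.40 for BEM2, a GTPase-activating protein of bud growth, to 1.04 for KSS1, a MAP kinase with values on 3 arrays. FIG1 and AFB1, mating genes on the array but not on the list, did not pass either. Their means were -0.15 ± 0.259 and -0.086 ± 0.0728 (SD, n = 4), with limma adjusted p of 0.431 and 0.397.

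Of the genes that did not pass, 4 are named here, picked after their values were seen. FUS1, a cell fusion gene induced by pheromone, read 0.36, 0.91, 0.28 and 0.21, above the median on all 4 arrays, with a mean of 0.44 ± 0.319 (SD, n = 4) and a limma adjusted p of 0.0936. It had neither missing values nor whole-number ratios. PRM5, a pheromone-regulated membrane protein gene, read 0.24, 0.20, 0.17 and 0.26, a mean of 0.22 ± 0.0424 (SD, n = 4) with a limma adjusted p of 0.0704. STE12, the transcription factor of the pheromone response, read -0.018, 1.47, -0.59 and -0.57, with an SD of 0.969 (n = 4) and with 1 missing value and 2 whole-number ratios among its 8. AFR1, a regulator of receptor signalling and of mating projections, read 0.29, 2.12, 1.40 and 0.13, with 1 whole-number ratio. Of the 18 genes, 8 had a missing value or a whole-number ratio, as had 144 of the 353 named genes. Among the 5 mating genes AGA1 and SAG1 had one.

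**Figure D4:**
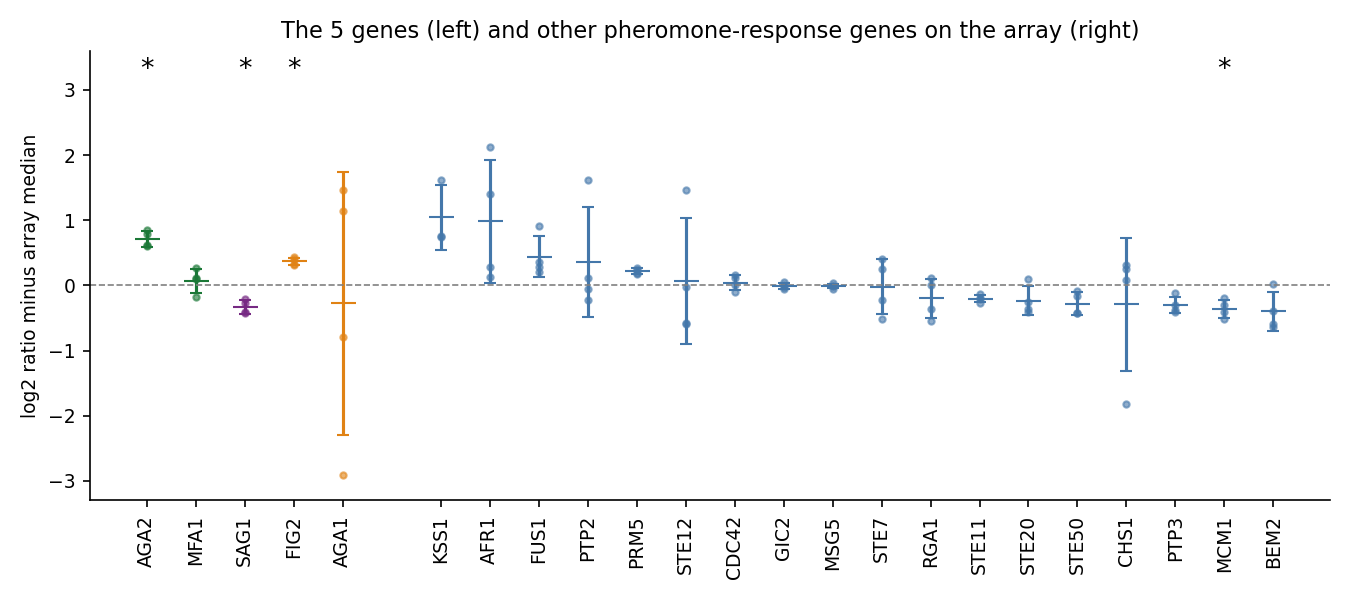
Log2 ratio minus the array median (vertical axis) of the 5 genes at left and of the 18 listed genes of pheromone response on the array at right, ordered by mean. Points are gene means on single arrays, horizontal bars and whiskers are the mean and SD over arrays, and asterisks mark a limma adjusted p under 0.05, which AGA2, SAG1, FIG2 and MCM1 reached. AGA1 spans 1.46 to -2.90, wider than any gene at right.

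The genes read most like each member were found as those with the smallest root mean square difference from it over the 4 arrays, among 326 genes with values on all 4. Nearest to AGA2 were TIR3, a cell wall mannoprotein gene, with a difference of 0.144, and MKK2, a kinase of cell wall integrity signalling, with 0.149. PPZ1, a protein phosphatase gene, lay 0.0596 from MFA1, and YNL058C 0.0799. For SAG1 these were INP53, a phosphoinositide phosphatase gene, at 0.0611, and MCM1, at 0.0800. EGT2, a gene of daughter cell separation, differed from FIG2 by 0.0580, and MET17, a gene of methionine synthesis deleted in this strain background, by 0.0654. MET17 itself passed above the median, at a mean of 0.38 ± 0.0893 (SD, n = 4) and a limma adjusted p of 0.03475. A call above the median was thus also made for a gene that the strain lacks, and what its features bound was not tested. No gene read closely like AGA1: CLA4, a protein kinase gene, differed by 0.867 and SKT5, an activator of chitin synthase, by 1.06. Likeness over 4 arrays describes these readings alone.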

How the data were processed

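Both channels of each 2-colour array held the same RNA, per the labels. The deposited values were 1 log2 ratio per feature and array. The sources used here do not state the numerator dye, the background correction or any normalization. Intensities were not used. That the scale is log2 follows from 373 values that match the log2 of 1 whole number over another, neither above 10. Features were named from the platform annotation, checked through Entrez identifiers against the R64 gene table, where all 724 features annotated with 1 gene were found under the same symbol. Features with several genes (10) or none (162) entered no gene test.

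Each array was centred on its median, duplicate features were averaged on each array, and genes measured on 3 or more arrays were tested against 0 with limma 3.58.1 in R 4.3.3 (lmFit on an intercept, eBayes, two-sided, Benjamini-Hochberg over all genes, threshold 0.05). The duplicate difference, second minus first feature in table order, was tested likewise. Figures used Python 3.11.15 and matplotlib 3.10.9. The members are defined by symbol alone, but they and the lists were chosen with earlier results of these data known. Named genes were the 5 members, called genes and up to 4 others of the pheromone list, and the 2 genes most like each member. KSS1 and BEM2 are named outside this rule as the ends of the list, and FIG1, AFB1 and PRM10 as genes left off it. Alternatives were no centring, centring by blocks of consecutive rows, values on all 4 arrays, whole-number ratios set to missing, features apart, a robust prior, each array left out, and other largest whole numbers.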

Additional observations from a re-analysis of the deposited data

How the results depend on the processing

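The number of genes called was 86, and 157 features when these were tested apart, since that fit has 691 rows. With 1 array left out it was 0 to 1, with fewer samples. Without 1 array the means were 0.67 to 0.75 for AGA2, -0.37 to -0.30 for SAG1 and 0.35 to 0.39 for FIG2, none passing limma, and -0.85 to 0.60 for AGA1 and 0.010 to 0.16 for MFA1, neither of which passed. FIG2 did not pass as deposited, at 0.19, lower by the mean of the array medians. SAG1, at -0.33, missed the threshold with a robust prior, and the cause was not tested. SAG1 passed as deposited, at -0.51, with blocks of rows centred and with whole-number ratios missing. AGA2 passed as deposited, with blocks of rows centred, with whole-number ratios missing and with a robust prior. MFA1 turned to -0.11 as deposited and to -0.014 with blocks of consecutive rows centred, never passing. Duplicate differences, none of which passed, ran over 1 array left out from -0.69 to 1.56 for AGA1, -0.012 to 0.071 for MFA1 and -0.11 to 0.015 for SAG1, and that of SAG1 was 0.0041 with whole-number ratios missing. For that test 0 genes were called in any setting, with 13 to 16 at an unadjusted p under 0.05. No paired analysis was possible because all arrays form 1 group. Signal over background is unknown, which limits what a missing value or whole-number ratio can show.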

Other observations

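After the AGA1 values were seen, another form of ratio was looked for, one whose smaller whole number is 1 or 2 and whose larger is at most 100. The first AGA1 feature held such a ratio on 3 of 4 arrays: 15 over 2 on array 1, 3 over 2 on array 2 and 2 over 65 on array 4, the last being the value of -5.02. The second AGA1 feature and the other 4 genes had none, so the 5 genes held 3 among 40 values. Of the 3297 values of all features 7.1% had this form, and of the 75 values of size 2.5 or more 46 did, or 61.3%. Ratios of this form lie closer together at larger sizes, and the part of that spacing in the share of 61.3% was not tested. None of the 20 sets of 4 values examined for the 5 genes (gene means, single features and duplicate differences) held a value apart from the other 3 by the Dixon test.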
